A study of Homo sapiens with 24 samples.

Results

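The genes described are those of the cytosolic ribosome, the particle of a large and a small subunit that translates messenger RNA. They were taken by name: a probe set belonged when its annotation gave 1 gene symbol of the form RPL or RPS with a number, or RPLP0, RPLP1, RPLP2 or RPSA. Kinases, pseudogenes and Y-linked copies were dropped. Of 54675 probe sets, 120 belonged. They represented 59 of 19775 genes with a probe set of 1 symbol, 38 of the large and 21 of the small subunit. Of these, 112 probe sets and 58 genes passed a filter on low signal, with RPL3L, a muscle paralog, left out at 0.6 to 15.4 signal units. The filter was passed in any 3 arrays, and the counts below are of the 58 genes tested. No probe set with a single symbol represented RPLP0, RPSA, RPL5, RPL10 or RPL26, so these proteins are not described.

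The cells were D425, an established human medulloblastoma line, grown in medium with fetal calf serum. In the arm labelled shOTX2 they carried a short hairpin RNA against OTX2, a homeobox transcription factor gene, switched on by doxycycline. That arm had 3 independent time courses and the control arm had 1, each with 1 array at 0, 8, 16, 24, 48 and 96 h. Doxycycline was added to both arms as far as the labels tell, and what the control cells carried was not given in the sources used here. Each array gave a MAS5 signal, a linear intensity per probe set, and all log2 changes are of signal + 16. The question put to these genes was whether their transcripts moved while the arm labelled shOTX2 changed.

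Ribosomal proteins are made in near equal numbers, since each ribosome holds one copy of nearly every one. Their mRNAs begin with a short run of pyrimidines at the cap, the 5′ terminal oligopyrimidine or TOP motif, through which mTORC1 and LARP1 control their translation together. MYC raises ribosome production and is amplified in D425 cells. A few ribosomal proteins also have paralogs, near copies encoded by another gene and often used in particular tissues or in tumours.

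The starts of these genes show which of them carry a TOP-like sequence. The windows below run from 20 bases before the annotated RefSeq start to 20 bases from it on (GRCh38.p14, 5′ to 3′ on the gene's strand). The capitals mark a C followed by at least 4 letters C or T whose first C lies within 10 bases of the start. The first set holds core genes whose transcripts were lower at 96 h, and the second holds paralogs and partners. In it RPL39 and RPL7L1 stand alone, since RPL39L and RPL7 had no entry.
RPL12, chr9:127451387-127451426, minus strand: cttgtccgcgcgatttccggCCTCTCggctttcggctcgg
RPL35, chr9:124861938-124861977, minus strand: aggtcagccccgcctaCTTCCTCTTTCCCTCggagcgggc
RPS12, chr6:132814549-132814588, plus strand: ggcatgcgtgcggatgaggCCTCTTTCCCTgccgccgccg
RPS15, chr19:1438376-1438415, plus strand: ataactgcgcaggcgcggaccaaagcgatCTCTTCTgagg
RPL39, chrX:119791611-119791650, minus strand: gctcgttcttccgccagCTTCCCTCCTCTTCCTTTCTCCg
RPL22, chr1:6199576-6199615, minus strand: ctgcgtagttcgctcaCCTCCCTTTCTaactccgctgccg
RPL22L1, chr3:170870176-170870215, minus strand: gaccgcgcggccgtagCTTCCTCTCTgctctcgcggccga
RPL7L1, chr6:42879596-42879635, plus strand: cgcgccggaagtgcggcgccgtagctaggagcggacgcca
RPS27, chr1:153990742-153990781, plus strand: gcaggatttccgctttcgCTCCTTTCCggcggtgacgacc
RPS27L, chr15:63157458-63157497, minus strand: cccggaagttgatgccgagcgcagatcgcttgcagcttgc
Such a run was present in 42 of the 46 core genes with an entry (91.3%), against 38.4% of 27303 genes in the RefSeq table. The start itself was a C followed by 4 letters C or T in 34 core genes (73.9%) and in 5.14% of all genes. Of 5 paralogs with an entry, RPL22L1 had both, and RPL7L1, RPS27L, RPL26L1 and RPL10L had neither. In all, 51 of the 59 genes matched the table, 7 of them with several starts, and a gene counted if any start held the letters. RPL3L, RPL7, RPL8, RPL23A, RPL30, RPL37, RPL39L and RPS15A were not matched.

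Other short motifs were searched on both strands of the 300 bases from 250 before the start to 50 after it. CTTCCG, the core of an ETS-type site, occurred in 32 of 46 core genes (69.6%) and in 22.6% of all genes in the table. CACGTG, the E-box that MYC binds, occurred in 3 core genes (6.52%), in RPL7L1 among the paralogs, and in 8.78% of all genes. TAATCC, the motif of OTX-type homeodomains, occurred in 4 core genes (8.70%), in none of the 5 paralogs and in 7.81% of all genes. AAGATGGC, a YY1-type motif, occurred in 4 core genes (8.70%) and in 3.52% of all genes, and TATAAA in 3 (6.52%) and 14.0%. These are matches of letters and say nothing of binding.

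Before the members, the arrays were checked against their labels. OTX2 read 4659 ± 217 to 4188 ± 302 signal units (SD, n = 3) between 0 and 96 h, a log2 change of -0.15 (limma adjusted p = 0.172), and 4964 and 5357 in the control. Where its probes lie relative to the hairpin is not given, so it does not check the labels. MYC fell from 5022 ± 389 to 3064 ± 178, a change of -0.71 (limma adjusted p = 4.97e-05), and read 5804 and 6767 in the control. OTX2, MYC and IMPG2 were bright on all arrays, as markers of such tumours. Of the other listed markers, EYA2 ranged from 134.4 to 1302.4 and NRL from 42.1 to 648, while GABRA5 and NPR3 stayed at or below 28.0 and 12.9. Of 8 markers of blood, endothelial, mesenchymal, glial and epithelial cells, all had medians at or below 38.2, with GFAP, EPCAM and PTPRC at medians of 2.05, 4.50 and 7.55. Their summed signal was 60.4 to 102.5 on the 0 h arrays, 164.6 to 229.9 on the 96 h arrays labelled shOTX2 and 106.2 to 161.3 in the control. Of the 5 tested, PDGFRB (23.0 ± 9.15 to 96.6 ± 35.6) and COL1A2 (3.40 ± 3.36 to 18.7 ± 7.29) rose at 96 h, and their part in the results was not tested.

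Over 96 h the transcripts of the core ribosome had small changes, with a median log2 change of -0.13 over 52 genes, and 3 of 6 paralogs fell by more than the change of any core gene. At 96 h against 0 h, 8 of 58 genes (13.8%) passed the test and all 8 were lower, where 43.6% of the 13903 tested genes passed and 22.5% were lower. The 8 were RPL39L, RPL22L1, RPL7L1, RPL8, RPS15, RPL12, RPS12 and RPL35. The median log2 change of the 58 genes was -0.13, with 56 below 0, beside a median of 0.00 over all tested genes. With the course as a block 22 were called, all lower, where 53.8% of all genes were called in either direction. The share of all genes that was lower in that fit is not given here. With each array centred on its median signal the count was 28, all lower, and the median -0.25 beside -0.12 for all genes. What share of all genes was called with that centring is not given here. For 47 of the 52 core genes the 95% interval of the change lay within 1.5-fold either way, as it did for 23.8% of all tested genes. Among genes with a mean signal over 1000, 7 of 53 ribosomal protein genes were called, against 696 of 1084 other genes (64.2%). The median size of change there was 0.13 for the members and 0.42 for the other genes. The residual SD of those genes had medians of 0.12 for the members and 0.13 for all genes over 1000. Most members were brighter than these other genes: of genes over 3000, 6 of 51 members were called, at a median signal of 7253, and 100 of 175 other genes (57.1%), at a median of 3990. The highest signal was at least 9285 on every array, and compression of the brightest signals was not tested.

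**Figure D1:**
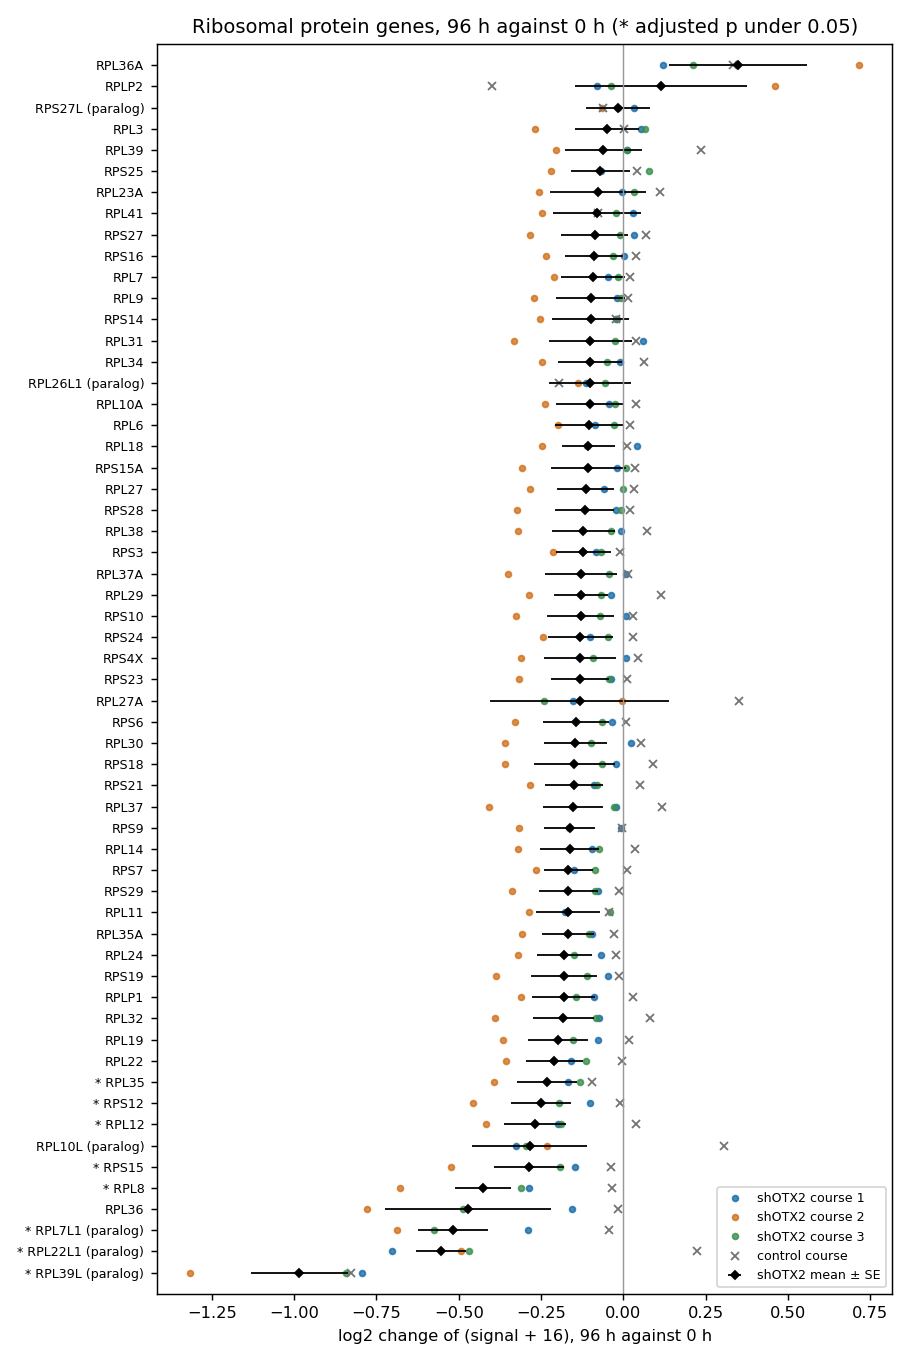
Log2 change of signal + 16 at 96 h against 0 h for the 58 tested genes: black diamonds are the means of the 3 shOTX2 courses with SE, coloured points single courses and crosses the control course. Most genes sit between -0.25 and 0 with course 2 farthest left, and RPL39L, RPL22L1 and RPL7L1 lie lowest.

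The 3 largest falls at 96 h were of paralogs. RPL39L, a copy of the exit tunnel protein RPL39 used mainly in the testis, read 122, 165 and 123 signal units at 0 h in courses 1 to 3. At 24 h the signals were 136, 132 and 102, at 48 h they were 80.5, 107 and 75.2, and by 96 h 63.9, 56.6 and 61.3. All 96 h values lay below all 0 h values, at 44.4% of the 0 h mean. The log2 change was -0.56 (SE 0.15, limma adjusted p = 0.00641) at 48 h and -0.98 (SE 0.15, limma adjusted p = 2.65e-05) at 96 h. The control course went the same way, from 150.4 before induction to 126 at 48 h, ending on 77.7 at 96 h, a change of -0.83. The late against early change (mean of 48 and 96 h against mean of 0 and 8 h) differed between the arms by -0.39 (SE 0.21, limma adjusted p = 0.211), which did not pass the test.

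RPL22L1, a paralog of RPL22 that can take its place in the large subunit, read 3673, 3423 and 3785 at 0 h. At 24 h the signals were 3735, 3905 and 4069, at 48 h they were 2983, 3266 and 3029, and by 96 h 2249, 2427 and 2732. The groups at 0 and 96 h did not overlap. The control course lay higher and went from 4102 to 4797 over the same span. The change was -0.23 (SE 0.08, limma adjusted p = 0.026) at 48 h and -0.56 (SE 0.08, limma adjusted p = 9.24e-06) at 96 h. It is the member with the smallest adjusted p between the arms, where late against early differed by -0.53 (SE 0.11, limma adjusted p = 0.00152).

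RPL7L1, related to RPL7 and known from work on the processing of large-subunit rRNA, read 1719, 1833 and 1858 at 0 h and 1519, 1359.7 and 1349 at 48 h. At 96 h it read 1404, 1133 and 1241, again with no overlap with 0 h. The change was -0.35 (SE 0.11, limma adjusted p = 0.015) at 48 h and -0.52 (SE 0.11, limma adjusted p = 0.000597) at 96 h. The control signals at 0, 48 and 96 h were 2236, 2355 and 2171. Its probe set carries the suffix that marks probes shared with other transcripts, so part of its signal may be theirs.

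RPS27L, a paralog of RPS27 that p53 can induce, moved in the other direction and then returned. The 0 h signals were 3846, 3322 and 3344 and the 24 h signals 4809.9, 4399 and 4352. By 48 h they were 4641, 4842 and 4239, and by 96 h 3933, 3173 and 3309.8. The 24 and 48 h values lay above all 0 h values, and the 96 h values overlapped them. It was the member called at 24 h, at 0.37 (SE 0.10, limma adjusted p = 0.0288), and the one that rose at 48 h, at 0.38 (SE 0.10, limma adjusted p = 0.00447). At 96 h the change was -0.02 (SE 0.10, limma adjusted p = 0.915). The control course also read higher in the middle, at 3784, 4786, 4577 and 3624 at 0, 24, 48 and 96 h. Between the arms late against early differed by 0.20 (SE 0.14, limma adjusted p = 0.332), short of the threshold.

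RPL26L1, a near copy of RPL26, averaged 1411 ± 67.3 (SD, n = 3) before induction, 1733 ± 258 at 48 h and 1315 ± 92.0 by 96 h. No change from 0 h passed the test. The control course read 1230.3, 1019 and 1072 at those times. The difference between the arms was 0.50 (SE 0.18, limma adjusted p = 0.0478). RPL10L, a retrogene of RPL10 used in the testis, was dim and went from 46.4 ± 4.96 to 35.1 ± 2.40 over 96 h, a change of -0.28 (SE 0.17, limma adjusted p = 0.208).

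Each paralog was then set against its partner on the same array. The log2 ratio of RPL39L to RPL39 changed from early to late by -0.80 on the log2 scale (mean of 3 courses, SD 0.14; -0.66, -0.80 and -0.93 in courses 1 to 3), two-sided exact permutation p = 0.00926, 0.0185 after Benjamini-Hochberg over the 4 pairs. The ratio of RPL22L1 to RPL22 changed by -0.33 on the log2 scale (mean of 3 courses, SD 0.15; -0.41, -0.16 and -0.42 in courses 1 to 3), two-sided exact permutation p = 0.0185, 0.0247 after Benjamini-Hochberg over the 4 pairs. The ratio of RPL7L1 to RPL7 changed by -0.36 on the log2 scale (mean of 3 courses, SD 0.13; -0.24, -0.33 and -0.49 in courses 1 to 3), two-sided exact permutation p = 0.00926, 0.0185 after Benjamini-Hochberg over the 4 pairs. The 3 ratios were lower in all 3 courses. That of RPS27L to RPS27 was higher in all 3, at 0.23 on the log2 scale (mean of 3 courses, SD 0.17; 0.17, 0.43 and 0.09 in courses 1 to 3), two-sided exact permutation p = 0.0556, 0.0556 after Benjamini-Hochberg over the 4 pairs. Arrays were permuted within courses, which gives 216 arrangements and no p below 0.00926. In the control course the ratios changed by -0.66, -0.04, -0.07 and -0.18 in the same order, so that of RPL39L moved in both arms. RPL39L is dim, so the size of its change depends on the pseudocount: late against early was -0.94 with 1 and -0.57 with 64 in place of 16. A ratio shows unequal change and not which of its members moved.

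The partners themselves were steadier. RPL39 read 7380.5, 10238 and 7921 at 0 h and 7439, 8879.9 and 7991 at 96 h, with overlapping groups and a 95% interval of the log2 change of -0.31 to 0.19. RPL7 read 8079.8, 9907 and 8147 at 0 h and 7824, 8555 and 8054 at 96 h, with an interval of -0.30 to 0.11. RPS27 read 6743, 8672 and 6667 and 6897, 7119.5 and 6624, with an interval of -0.30 to 0.13. For RPL22 the change was -0.21 (SE 0.09, limma adjusted p = 0.0587), from 5451, 6503 and 5283 to 4879, 5081 and 4879.8, and the adjusted p was 0.00604 with the course as a block. Where probe sets with shared probes were left out, another probe set stood for RPL22 and its change was 0.31 (limma adjusted p = 0.0179).

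**Figure D2:**
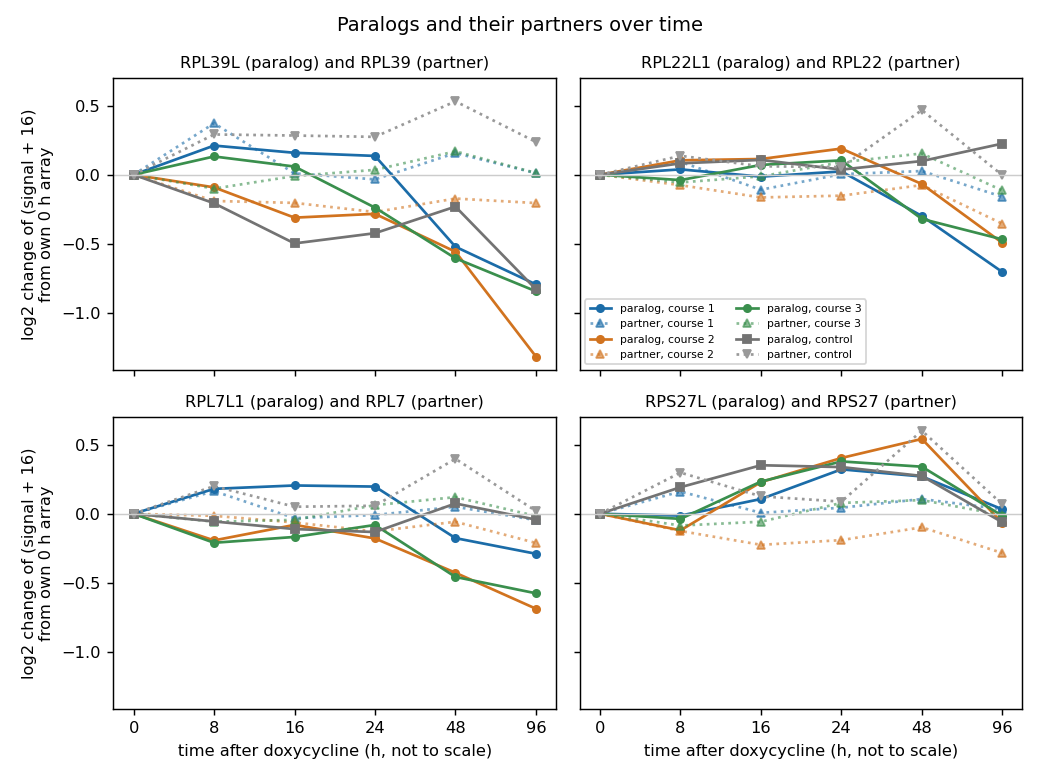
Log2 change of signal + 16 from the 0 h array of the same course for 4 paralogs (solid lines) and their partners (dotted lines), in shOTX2 courses 1 to 3 (blue, orange, green) and the control (grey). RPL39L, RPL22L1 and RPL7L1 part from their partners at 48 and 96 h, and the control RPL39L ends at -0.83 beside shOTX2 values of -0.79 to -1.32.

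Among the core proteins, 5 of 52 fell at 96 h, 3 of 32 in the large and 2 of 20 in the small subunit. Over all tested genes 22.5% were lower. With the course as a block 19 of 52 core genes fell, 12 in the large and 7 in the small subunit. That fit called 53.8% of all genes, in either direction. RPL8, which lies beside the peptidyl transferase centre, read 5648, 6058 and 5077 before induction, then 5478, 5456 and 5171 at 48 h and finally 4628, 3777 and 4087 at 96 h. Its 96 h values lay below all 0 h values, and the control read 6068 and 5923. The change was -0.43 (SE 0.09, limma adjusted p = 0.000479), with -0.29, -0.68 and -0.31 in courses 1 to 3.

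The other 4 changes were smaller. RPS15, at the head of the small subunit near the decoding site, read 6322, 8147 and 6380.2 at 0 h and 5714, 5666 and 5582 at 96 h, a change of -0.29 (SE 0.11, limma adjusted p = 0.0345). RPL12, at the base of the stalk that recruits elongation factors, read 7234, 8938 and 7245 and 6306, 6685 and 6357, a change of -0.27 (SE 0.09, limma adjusted p = 0.0264). RPS12, on the beak of the small subunit, read 6421, 7906 and 6409 and 5986, 5756 and 5596, a change of -0.25 (SE 0.09, limma adjusted p = 0.0328). In each of these 3 the 0 h and 96 h values did not overlap, and the course 2 array was the highest of the 0 h arrays. RPL35, at the polypeptide exit, read 5814, 6464 and 5211 and 5172, 4918 and 4753, a change of -0.23 (SE 0.09, limma adjusted p = 0.0481), just inside the threshold. Its values did not overlap either, and course 2 was again the highest at 0 h. Without the 0 h array of course 2, a setting added after the data were seen, 4 genes were called at 96 h: RPL39L, RPL22L1, RPL7L1 and RPL8. Without course 2 altogether 4 were called too, and without course 3, 5. What share of all genes was called in these settings is not given here.

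By role, beside the 22.5% of all genes that were lower, the exit tunnel and surface proteins had 1 of 7 tested genes lower (RPL35), 4 with the block, and a median change of -0.18. The proteins of the mRNA entry and decoding side had 1 of 5 lower (RPS15), 2 with the block, and a median of -0.13. Of 9 genes mutated in Diamond-Blackfan anaemia, a failure of red cell production, none was called by limma without the block, 5 were lower with the block, and the median was -0.17. In the fit with the block 53.8% of all genes were called, in either direction. RPL11, which joins 5S rRNA to bind MDM2, read 6659 ± 774 at 0 h and 5901 ± 247 at 96 h, a change of -0.17 (SE 0.10, limma adjusted p = 0.18). RPS6, the substrate of S6 kinases, read 8744 ± 1317 and 7864 ± 295, a change of -0.14 (SE 0.10, limma adjusted p = 0.278). RPLP1 of the P stalk read 7283 ± 791 and 6400.4 ± 216, a change of -0.18 (SE 0.10, limma adjusted p = 0.146). RPL3, close to the peptidyl transferase centre, changed by -0.05 (SE 0.10, limma adjusted p = 0.728), with an interval of -0.26 to 0.16.

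RPL36, a large-subunit protein, showed the largest difference between courses. It read 3863, 3019 and 2646 at 0 h and 3467, 1754 and 1885 at 96 h, and on each of the 6 time points course 1 was the highest. The 96 h change was -0.47 (SE 0.25, limma adjusted p = 0.146), not called, and had an adjusted p of 0.000128 with the course as a block; the 3 courses changed by -0.16, -0.78 and -0.49. The control course read 3832 and 3791, near course 1. RPL27A, RPLP2 and RPL36A had no bright probe set: their mean signals at 0 h were 176 ± 50.6, 47.1 ± 12.5 and 29.9 ± 10.9. Their 96 h intervals were -0.70 to 0.44, -0.44 to 0.67 and -0.09 to 0.79, too wide to show a change of the size seen in the others.

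Over time, no member passed the test at 8 h, when no gene of the 13903 did either (0%). At an unadjusted p under 0.05 there were 0 members and 462 genes at 8 h. At 16 h no member was called, where 1.02% of all genes were. There 0 members and 1555 genes had an unadjusted p under 0.05 by limma. At 24 h 1 of 58 was called, RPS27L, where 6.15% of all genes were. At 48 h 4 were called, RPS27L higher and RPL39L, RPL7L1 and RPL22L1 lower, where 33.3% of all genes were. For late against early, 6 were called (RPS27L higher; RPL39L, RPL22L1, RPL7L1, RPL8 and RPS15 lower), where 49.3% of all genes were. With the course as a block, 22 members were lower at 96 h (53.8% of all genes called, in either direction) and 13 were called for late against early (58.1%). The block also left 1 call at 24 h and 5 at 48 h, where 15.3% and 44.6% of all genes were called. Without course 2 the counts were 0 at 24 h, 1 at 48 h and 3 for late against early, and without course 3 they were 0 at 24 h and 0 at 48 h. The share of all genes called without a course is not given here, so these lower counts cannot be read as particular to the members.

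**Figure D3:**
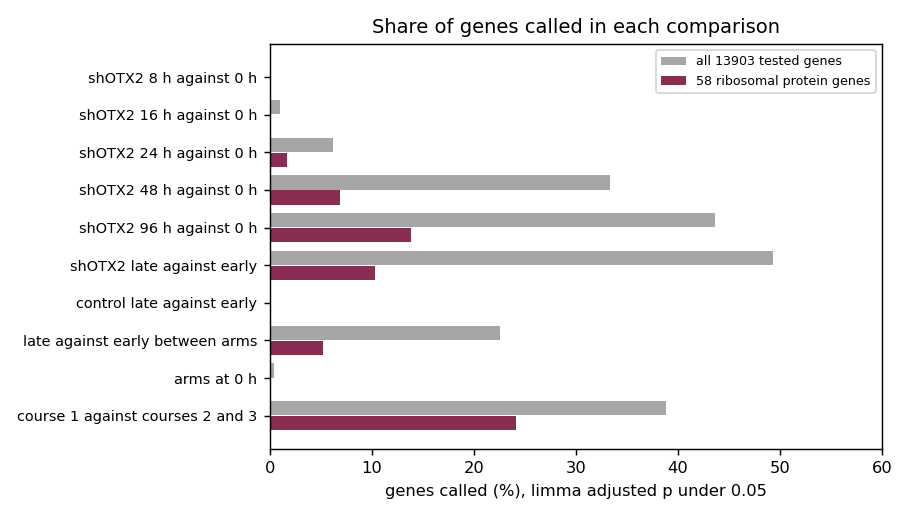
Percent of genes called by limma (adjusted p under 0.05) in each comparison, for the 58 ribosomal protein genes and all 13903 tested genes. The members' bar is shorter wherever any gene was called, with 13.8% against 43.6% at 96 h.

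In the control course, late against early called no member and no gene (0%), with 3 members and 1103 genes at an unadjusted p under 0.05 by limma. The members' median change there was 0.11, with 45 of 58 above 0. Between the arms, 3 members differed in late against early, RPL22L1 and RPL7L1 lower and RPL26L1 higher in the arm labelled shOTX2, where 22.5% of all genes were called. The members' median difference was -0.17. With the course as a block 15 differed, 14 of them lower, where 35.0% of all genes did. At 0 h the arms differed in no member, where 0.453% of all genes were called, with no member at an unadjusted p under 0.05. These comparisons rest on 1 control course, whose arrays are assumed to vary like the others. Without the control array at 48 h, a setting added later, RPL26L1 and RPL7L1 were no longer called between the arms. Their differences were then 0.47 and -0.38, and that of RPL22L1 was -0.59. In that setting the late control rests on the 96 h array alone.

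That array stood apart. The median signal of the 58 genes was 8666 on it, against 6704 at 0 h and 6774 at 96 h in the control, and they took 4.84% of the summed signal of all probe sets. On the other 23 arrays the median was 6188 to 8139 and the share 3.61% to 4.42%. The second highest was the 0 h array of course 2, at 8139. Course 2 then read 6505 at 96 h, while course 1 went from 6574 to 6392 and course 3 from 6473 to 6188. The median change at 96 h was thus -0.31 in course 2, -0.05 in course 1, -0.07 in course 3 and 0.02 in the control. With the 0 h array of course 2 left out, the median change over the 3 courses was -0.04. MAS5 scaling trims the brightest 2% of probe sets, and 51 or 52 of the 58 members were among these on every array, so they played no part in setting the scale.

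**Figure D4:**
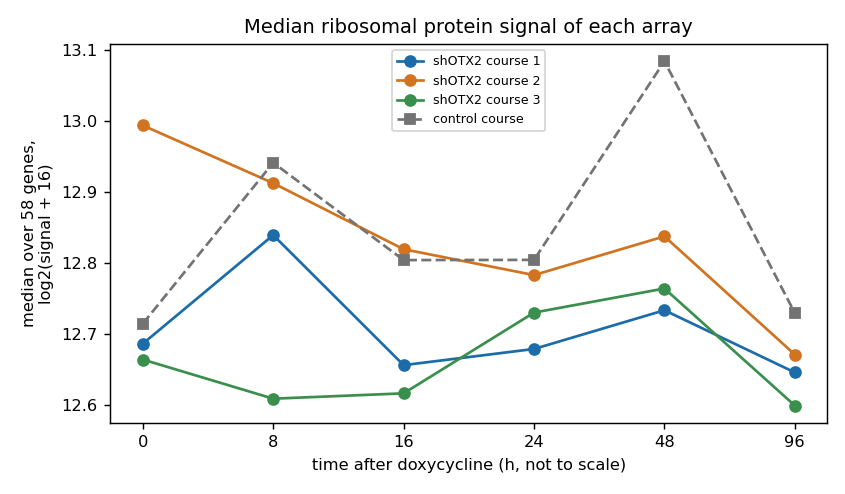
Median over the 58 genes of log2(signal + 16) on each of the 24 arrays, by time, for shOTX2 courses 1 to 3 and the control. The control 48 h array (13.1) and the course 2 0 h array (13.0) stand above their neighbours.

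The core genes went up and down together from array to array. Over 24 arrays the correlation between pairs of 49 bright core genes had a median of 0.89, and after group means were removed, over 18 arrays, a median of 0.91. Arrays share courses and each has 1 scale, so these values describe the arrays and carry no p. Against the median of the other core genes, RPS6 correlated at 0.99 and RPL7 at 0.97. Among 53 bright members, those that followed the core least were the paralogs RPL26L1 (-0.22), RPS27L (0.20), RPL22L1 (0.36) and RPL7L1 (0.40), and RPL36 (0.16).

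Course 1 differed from courses 2 and 3 in 14 of 58 members, 3 higher and 11 lower, where 38.8% of all genes were called. The test took the 6 time points of each course as replicates, with 1 course set against 2. Its SE and p therefore measure scatter over time within courses and not the spread between courses. RPL36 was higher in course 1, at 0.59 (SE 0.05, limma adjusted p = 6.31e-08), as were RPL7L1 (0.17) and RPS27L (0.17). RPS27L was lower in course 1 by the mean of its probe sets (-0.15, limma adjusted p = 0.0381) and on its probe set without shared probes (-0.17, limma adjusted p = 0.0307). The dim RPL27A was lower, at -0.57 (SE 0.09, limma adjusted p = 3.27e-05), and so were RPLP2 (-0.36), RPL36A (-0.30) and RPL26L1 (-0.18). The signal ratio of the 3′ to the 5′ actin probe sets, which rises as RNA degrades, also parted them. It averaged 1.42 ± 0.0836 (SD over 6 arrays) for course 1, 2.07 ± 0.198 for course 2 and 1.91 ± 0.0572 for course 3, beside 1.40 ± 0.0858 for the control. Its part in the difference was not tested. The count of 14 was 39 without course 3 and 8 without course 2. With each array centred on its median 4 were higher and 3 lower. These counts stand without the share of all genes called in the same settings.

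Several genes had a second, dimmer probe set that went against the bright one. Of 54 further probe sets of the members, 33 had a mean signal up to 1000. Of these 33, 8 were higher and 3 lower at 96 h, where 20.0% of all 33803 probe sets were higher and 16.8% lower. Of the 31994 kept probe sets on the array with a mean signal up to 1000, 6516 were higher and 4915 lower. The share higher among the 33 was close to that share. RPL37 read 7346 ± 1106 (SD, n = 3) at 0 h and 6561 ± 61.9 at 96 h on its brightest probe set. On 224763_at it read 375, 307 and 336 at 0 h and 795, 809.8 and 723 at 96 h, a change of 1.16 (limma adjusted p = 7.21e-07), with no overlap. The control read 373, 390.1 and 779 there at 0, 48 and 96 h. Of the further probe sets of RPL37, 224767_at changed by 0.96 (limma adjusted p = 2.06e-06) and 224766_at by 0.19 (limma adjusted p = 0.512).

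RPS29 read 7708 ± 976 at 0 h and 6827 ± 165 at 96 h on its bright probe set. On 238824_at it read 22.3, 11.6 and 43.6 at 0 h and 119, 98.1 and 98.6 at 96 h, a change of 1.60 (limma adjusted p = 8.31e-05), and the control read 25.6 and 79.2. In RPS24 both probe sets had negative changes of unequal size. Its bright probe set read 6034 ± 702 and 5490.2 ± 255, while 1555878_at read 149, 118 and 131 at 0 h and 32.4, 34.7 and 36.1 at 96 h, a change of -1.55 (limma adjusted p = 9.62e-07) beside -0.13 on the bright one. The control read 193 and 196 on it. Which transcript forms these probe sets read is not given in the sources used here. In all, 34 genes had several probe sets, and the kept ones differed in sign at 96 h in 15 of 31 genes with more than 1. Some of these signs rest on dim probe sets with small changes, as in RPL14 on 219138_at (0.07, limma adjusted p = 0.889). How often signs differ over all genes with several probe sets is not given here.

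Other parts of the translation machinery had larger median changes than the core ribosome. Of 75 tested mitochondrial ribosomal proteins, which build the separate ribosome of mitochondria, 53 were lower and 2 higher at 96 h, with a median change of -0.56. MRPL4 went from 490.1 ± 165 to 186 ± 13.9 (SD, n = 3), a change of -1.28 (limma adjusted p = 0.000109), MRPL37 from 1516 ± 312 to 664 ± 78.0 and MRPS12 from 559 ± 81.3 to 240.3 ± 16.8. MRPL20 changed by -1.07 (limma adjusted p = 6.98e-07). Of 26 initiation factors, 14 were lower and none higher, with a median of -0.35. They included EIF2S1 of the initiator tRNA complex (-0.86, limma adjusted p = 9.35e-06), EIF3B (-0.84, limma adjusted p = 0.000833) and EIF3I (-0.76, limma adjusted p = 1.48e-05) of the scaffold eIF3, and EIF4G1 (-0.83, limma adjusted p = 0.0238), which bridges cap and ribosome. Of 4 elongation factors, EEF1D fell from 2411 ± 544 to 1068 ± 84.0 and EIF5A from 242 ± 26.1 to 162 ± 30.9. EEF1A1 (-0.11, limma adjusted p = 0.467) and EEF2 (0.20, limma adjusted p = 0.184) were not called. With the course as a block EEF2 was higher (limma adjusted p = 0.0112). For all tested genes 22.5% were lower, 21.1% higher and the median was 0.00.

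Chaperones that escort new ribosomal proteins were lower in 6 of 10 and higher in none, where 22.5% and 21.1% of all genes were. Their median was -0.37. Among them were BCCIP (-1.12, limma adjusted p = 0.000881), PDCD2L (-1.02, limma adjusted p = 7.37e-06), PDCD2 (-0.43, limma adjusted p = 0.00844) and LTV1 (-0.43, limma adjusted p = 0.0167). Of 4 listed ribosomal proteins outside the name rule 2 were tested, and both were lower: RPL36AL, an expressed copy of RPL36A, went from 2214 ± 111 to 1425 ± 112, and FAU, which encodes the small-subunit protein eS30 fused to a ubiquitin-like one, from 4696 ± 643 to 3647 ± 260.5. Of 17 other TOP mRNAs, 3 were higher and 3 lower, beside 21.1% and 22.5% of all tested genes, with a median of -0.03. VIM, a filament protein, changed by -1.01 (limma adjusted p = 0.000115), the nucleotide carrier SLC25A5 by -0.56 (limma adjusted p = 1.05e-05), the import receptor IPO7 by -0.42 (limma adjusted p = 0.00915) and HNRNPA1 by 0.37 (limma adjusted p = 0.0284).

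Of 16 regulators of mTORC1 and TOP mRNAs, 4 were higher and 5 lower, with a median of -0.35, beside 21.1% and 22.5% of all tested genes. DDIT4, a stress-induced inhibitor of mTORC1, rose from 138 ± 42.0 to 679 ± 137, a change of 2.20 (limma adjusted p = 1.15e-05), and read 213 and 580 in the control. EIF4EBP1, the translation repressor that mTORC1 inactivates, fell from 555 ± 117 to 179 ± 18.1, with 980.5 and 1095 in the control. EEF2K, the kinase that slows elongation, fell from 877 ± 194 to 325 ± 73.6, and DEPTOR, a subunit that restrains mTOR, from 152 ± 37.0 to 63.4 ± 2.65. These are levels of mRNA, and no translation rate was measured here. In bulk RNA a change in fewer cells and a change in the RNA of each cell cannot be told apart.

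**Figure D5:**
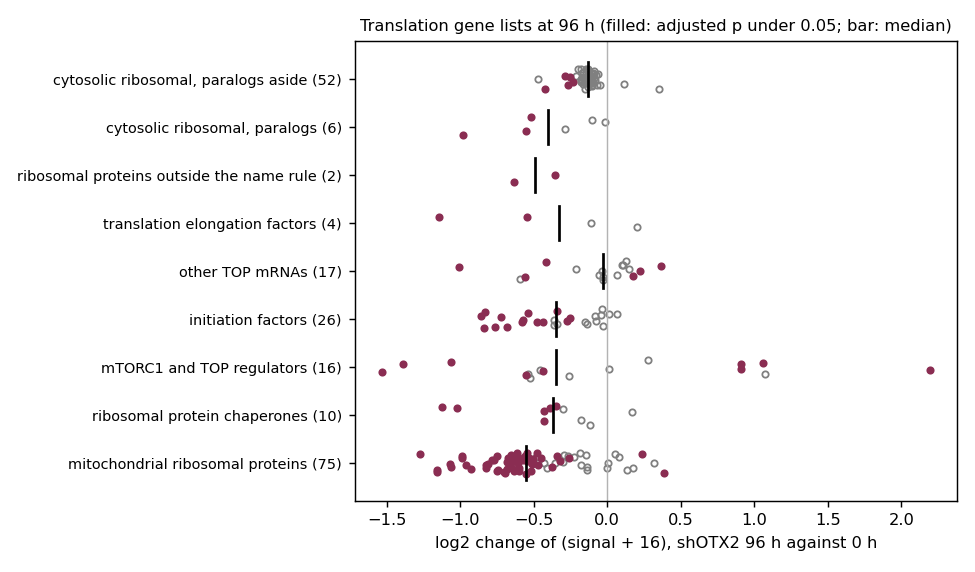
Log2 change of signal + 16 at 96 h against 0 h in the arm labelled shOTX2 for each tested gene of the ribosome and of 7 related lists, with the number of genes in brackets. Filled points passed limma's adjusted p under 0.05, bars are medians, and the core ribosome is packed near -0.13 while mitochondrial ribosomal proteins centre on -0.56.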

How the data were processed

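RNA of 24 D425 samples was measured on Affymetrix U133 Plus 2.0 arrays, and groups, times and courses came from the labels. The deposited values are linear signal intensity; MAS5 and GCOS were used, per the submitters' processing notes, in versions that the sources used here do not give. A trimmed mean of 100.011 to 100.014 (2% off each end) shows scaling of each array to 100. Of 54675 probe sets, the platform annotation gave 1 symbol to 41097, several to 1801 and listed 42898 in all, and 65 with several symbols, 1 of them ribosomal, were left out of the members.

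Probe sets above the array median in at least 3 arrays were kept (33803), and each gene took its brightest, which gave 13903 genes. Tests used log2(signal + 16) and limma 3.58.1 in R 4.3.3 (12 group means, eBayes with trend, 12 residual degrees of freedom), with Benjamini-Hochberg adjustment over all genes and a threshold of 0.05, after trials on simulated data. Whether courses came from separate cultures beyond being independent is not stated. Deviations from group means correlated within courses in all 45 pairs (0.157 to 0.556), so a fit with the course as a block (10 residual degrees of freedom) was also run. Alternatives were other scalings, pseudocounts, filters, probe set rules and fits, and each course left out. Except for the block, counts of members under them are given without the share of all genes called. The number of arrays limits the precision.

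Named were up to 12 genes each way that were called at 96 h and moved alike in every course, up to 3 each way at earlier times, 6 per other comparison and 4 per list, the paralogs with partners, a fixed set of well-known proteins, and the 3 genes whose probe sets differed most. The members and lists were chosen with earlier results of these data known. RefSeq start windows came from GRCh38.p14.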

Additional observations from a re-analysis of the deposited data

Results flagged for a closer look

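In 3 of 58 ribosomal protein genes (5.17%) the change from early (0 and 8 h) to late (48 and 96 h) differed between the arms. The arm labelled shOTX2 was set against the control course by limma's test of the difference itself. Over all 13903 tested genes that test called 22.5%, and it rests on 1 control course. RPL22L1 differed by -0.53 (SE 0.11, limma adjusted p = 0.00152), with a change of -0.41 in the arm labelled shOTX2 and of 0.12 in the control. RPL7L1 differed by -0.44 (SE 0.15, limma adjusted p = 0.0415), with changes of -0.40 and 0.04. RPL26L1 differed by 0.50 (SE 0.18, limma adjusted p = 0.0478), with changes of 0.19 and -0.31. RPL22L1 was called under 17 of 18 alternatives, and not where each array was centred on the members' median. RPL26L1 was called under 8 (adjusted p from 0.00552 to 0.192) and RPL7L1 under 7 (0.00242 to 0.348). Neither was called without the control 48 h array, without course 2 or without course 3.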

How the results depend on the processing

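RPL39L, RPL22L1, RPL7L1 and RPL8 were lower at 96 h and called under all 18 alternatives, though RPL7L1 has no probe set without shared probes and kept its own there. RPS12 and RPS15 were called in 12 of 19 settings, RPL12 in 11 and RPL35 in 8. These 4 made up the 33 lost calls at 96 h, and 14 calls were gained by other named genes. The members' median at 96 h was -0.25 to -0.04, leaving aside the centring on the members' own median, which takes it out. Centring each array on its median gave -0.25 beside -0.12 for all genes, and quantile normalization -0.04 beside -0.06, so relative to all genes the sign turned there.

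The counts of called members moved as follows. They stand without the share of all genes called under each setting. They therefore do not show whether the members moved apart from all genes. Centred on the array median: 0 at 24 h, 28 lower at 96 h, 32 lower late against early and 7 between courses (4 higher, 3 lower). Quantile normalization gave 10 late against early (2 higher, 8 lower). No filter gave 0 at 24 h, 4 at 96 h, 1 between arms and 8 between courses. The mean of a gene's probe sets gave 10 at 48 h, 15 at 96 h (4 higher, 11 lower), 16 late against early (9 higher, 7 lower) and 6 between arms. Probe sets without shared probes, which 31 of 58 genes had and which replaced the brightest in 16, gave 2 at 24 h, 10 at 48 h, 14 at 96 h (5 higher, 9 lower), 15 late against early and 5 between arms. Testing all probe sets gave 1 between arms. The course as a replicate block gave 22 at 96 h, 13 late against early and 15 between arms, and changed no other count by over 1.5 times. Only the groups compared gave 0 at 24 h, 4 at 96 h and 1 between arms. No variance trend gave 0, 4 and 1 there and 5 between courses. Leaving out each course gave 0 to 1 at 24 h, 0 to 3 at 48 h, 4 to 6 at 96 h, 3 to 6 late against early, 1 to 5 between arms and 8 to 39 between courses. Of settings added later, centring on the members' median gave 0 at 24 h, 2 at 48 h, 5 at 96 h, 1 between arms and 9 between courses, leaving out the course 2 0 h array gave 0, 4 and 1 at 24 h, 96 h and between arms, and leaving out the control 48 h array gave 1 between arms. The cause was not tested.

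Reversed were RPL37 (0.54 by the mean of probe sets, 0.96 without shared probes), RPS29 (0.72 by the mean) and RPL22 (0.31 without shared probes) at 96 h, and RPS27L between courses (-0.15 by the mean, -0.17 without shared probes). With only the groups compared the control late against early had no residual degrees of freedom, and the arms at 0 h could not be fitted with the block nor the courses without course 1.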

Other observations

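Apart from the members, 65 probe sets carried several symbols of which 1 was ribosomal. Of these, 63 passed the filter and 47 had a mean signal over 1000. At 96 h 2 of the 47 were lower and none higher by limma, with a median log2 change of -0.12. Of all 63, 5 were lower and 3 higher. Over all 33803 kept probe sets 16.8% were lower and 20.0% higher.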
